A study of Mus musculus with 27 samples.

Results

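The IFIT family comprised 5 of the 39338 genes in the table of counts, chosen by their symbols: Ifit1 (NCBI gene 15957), Ifit2 (15958), Ifit3 (15959), Ifit3b (667370) and Ifit1bl1 (667373). RNA from EGFP-KASH+ nuclei of the motor cortex was sequenced from 27 mice, 1 library per mouse. EGFP-KASH is a green fluorescent protein fused to a nuclear membrane anchor, so that nuclei of transduced cells can be sorted. All 5 members passed the filter on low counts that left 21768 genes for testing.

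Both genotypes were studied with 3 treatments delivered by adeno-associated virus. C9-BACexp mice carry a bacterial artificial chromosome with the human C9ORF72 gene and its expanded hexanucleotide repeat, the lesion linked to ALS and FTD, and come from a single transgenic line. C57BL/6J mice are their wild-type littermates and hold no human target. The crRNA-13 groups received RfxCas13d-N2V8, a high-fidelity form of the RNA-cutting enzyme RfxCas13d, with a crRNA against human C9ORF72 (S13 in the labels) and EGFP-KASH. They held 6 C9-BACexp and 3 C57BL/6J mice. The NTG groups received a non-targeted crRNA and EGFP-KASH, with 6 C9-BACexp and 5 C57BL/6J mice. Their enzyme is RfxCas13d in the labels and RfxCas13d-N2V8 in the study's methods. The EGFP-KASH only groups, with 3 C9-BACexp and 4 C57BL/6J mice, received no Cas13. The crRNA-13 and NTG mice were injected at 6 weeks of age and examined 2 months later, while these times were not given for the EGFP-KASH only mice in the sources used here. The enzyme was driven by the ubiquitous CAG promoter.

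IFIT genes encode cytoplasmic proteins built of tetratricopeptide repeats and are among the genes most strongly induced by type I interferon and by viral RNA. Viral RNA is sensed by helicases such as those encoded by Ddx58 and Ifih1, which leads to interferon, and interferon acts through transcription factors that bind a short promoter motif, the interferon-stimulated response element. Ifit1 protein binds RNA whose cap lacks the methyl mark of host mRNA and blocks its translation. In humans, IFIT2 and IFIT3 bind to IFIT1 and IFIT3 stabilizes it. Mouse Ifit2 restricts neurotropic viruses in the brain, Ifit3b is a mouse paralog of Ifit3, and Ifit1bl1 is an Ifit1-like gene.

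The members lie together on mouse chromosome 19 (GRCm39, GENCODE vM39 annotation) over 104.2 kb. From the first start to the last end the order is Ifit2 at chr19:34527932-34554524 on the plus strand, Ifit3 at chr19:34560899-34566443 (plus), Ifit1bl1 at chr19:34570291-34579356 (minus), Ifit3b at chr19:34585328-34590801 (plus) and Ifit1 at chr19:34618271-34632174 (plus). Ifit1 lies within the span of Ifit1bl2, at chr19:34594449-34639833 on the minus strand. Ifit3 and Ifit3b are near-identical in places: 16.7% of the 100-base windows of Ifit3 spliced transcripts also occurred in Ifit3b, and 27.2% of those of Ifit3b occurred in Ifit3. Their split of the counts is therefore uncertain. No other pair of members shared a window.

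The sequence just upstream of the start is shown for 4 members, picked because they held the interferon motif in the windows searched. Ifit2 did not hold it there and is not shown. Each stretch of 170 bases runs from 200 to 31 bases before the start in RefSeq (a promoter table of GRCm38, all 5 members matched by symbol), and was matched exactly in GRCm39. Capitals mark TTTCNNTTTC, the core of the interferon-stimulated response element, searched on both strands.
Ifit1: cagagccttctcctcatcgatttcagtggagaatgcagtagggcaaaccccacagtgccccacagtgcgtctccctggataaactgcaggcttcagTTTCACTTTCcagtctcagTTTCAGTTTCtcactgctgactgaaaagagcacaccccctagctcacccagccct
Ifit3: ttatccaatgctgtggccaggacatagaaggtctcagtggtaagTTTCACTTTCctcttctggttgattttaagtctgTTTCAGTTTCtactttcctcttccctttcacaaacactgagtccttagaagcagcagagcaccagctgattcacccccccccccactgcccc
Ifit3b: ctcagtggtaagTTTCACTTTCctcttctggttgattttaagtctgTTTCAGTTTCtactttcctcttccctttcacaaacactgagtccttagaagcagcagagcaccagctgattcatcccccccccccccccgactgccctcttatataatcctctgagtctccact
Ifit1bl1: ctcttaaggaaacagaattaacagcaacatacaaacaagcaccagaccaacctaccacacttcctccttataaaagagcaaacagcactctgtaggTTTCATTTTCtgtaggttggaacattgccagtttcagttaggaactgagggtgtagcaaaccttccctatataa
The Ifit1 stretch is chr19:34618089-34618258, that of Ifit3 is chr19:34560729-34560898, that of Ifit3b is chr19:34585157-34585326 (all plus strand) and that of Ifit1bl1 is chr19:34579399-34579568 (minus strand). Ifit1 held 2 motifs, whose first bases lie 104 and 85 bases before the start. Ifit3 and Ifit3b also held 2 each, at 156 and 122 and at 188 and 154 bases, within a run of 169 bases that their windows share letter for letter. Ifit1bl1 held 1, at 104 bases, and a second RefSeq start of the same gene had 1 at 23 bases. Neither of the 2 windows of Ifit2 held these letters. Only these 2 RefSeq starts of Ifit2 were searched, while the gene has 10 annotated transcripts over 26.6 kb. Over windows of 250 bases before to 50 after the start, 3.44% of 32851 RefSeq windows held the motif and 0.225% held 2 or more. The members held it in 5 of 7 windows (71.4%), and 3 of the 7 held 2 or more. Among other interferon-induced effector genes the share with the motif was 15 of 31 windows (48.4%). Among genes of cap methylation and translation initiation it was 1 of 18 (5.56%).

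The libraries held 21508829 to 36777972 counts (median 29001126), and levels are given as counts per 1000000 counts of the library (CPM), scaled by TMM factors. Human C9ORF72 transcripts summed to 64.1 to 103 CPM in the 15 C9-BACexp libraries and were at 0 in 11 of the 12 C57BL/6J libraries. The exception was C57BL/6J crRNA-13 replicate 5, with 0.436 CPM of human C9ORF72. Because that library also had the highest level of 4 of the 5 members, the main results that rest on it are given with and without it. The neuron markers summed to 4280 to 5070 CPM in C9-BACexp crRNA-13 mice and 4290 to 4660 CPM in C57BL/6J crRNA-13 mice. In bulk nuclei, fewer cells of a type and less RNA per cell cannot be told apart.

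Among crRNA-13 mice, 4 of the 5 members, Ifit1, Ifit2, Ifit3 and Ifit3b, were lower in C9-BACexp mice than in C57BL/6J mice, by 2.98-fold to 8.45-fold. Of all genes tested, 0.648% were called lower and 1.09% were called in either direction. The median difference of the members was -2.84 on the log2 scale, against 0 over all genes tested. Calls needed an adjusted p under 0.05 in edgeR's quasi-likelihood test with 4 factors of unwanted variation, and more than a 1.2-fold change. Ifit1bl1 was not called. The same edgeR model without those factors called 0 members and 0.0184% of all genes, although 4 members had an unadjusted p under 0.05. Of all genes, 5.17% had such a p without factors.

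Ifit1, the cap-sensing member, had a lowest, median and highest level of 0.498, 2.03 and 15.4 CPM in C9-BACexp crRNA-13 mice, against 3.83, 14 and 99.3 CPM in the 3 C57BL/6J crRNA-13 mice. One C9-BACexp mouse, replicate 2, stood above 2 of the C57BL/6J mice, and the other 5 stood below all of them. The library with 99.3 CPM held 3644 counts of Ifit1, the most of all 27. The difference was -3.08 ± 0.72 (log2 fold change ± SE, n = 6 and 3, edgeR adjusted p = 0.0234), or 8.45-fold lower in C9-BACexp mice.

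Ifit3, whose human counterpart binds IFIT1, had 0.265, 0.925 and 4.73 CPM (lowest, median, highest) in C9-BACexp crRNA-13 mice, against 2.15, 6.91 and 22.4 CPM in C57BL/6J crRNA-13 mice. The groups overlapped through C9-BACexp replicate 2, which again was the highest of its group. The log2 difference was -2.84 ± 0.47 (edgeR adjusted p = 0.00204), which ranked 7 by p among the 21768 genes tested. Its paralog Ifit3b had 0.116, 0.285 and 1.14 CPM in C9-BACexp crRNA-13 mice, against 1.45, 1.7 and 7.85 CPM in C57BL/6J crRNA-13 mice. These groups did not overlap, which held for 0.841% of all genes in that direction. Ifit3b counts were few, 2.513 to 30.54 per library in the C9-BACexp mice. The log2 difference of Ifit3b was -2.84 ± 0.62 (edgeR adjusted p = 0.015).

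Ifit2, which restricts virus in mouse neurons, had 2.6, 3.64 and 6.08 CPM (lowest, median, highest) in C9-BACexp crRNA-13 mice, against 4.38, 9.21 and 27.6 CPM in C57BL/6J crRNA-13 mice. The C57BL/6J mouse with 4.38 CPM lay within the C9-BACexp range and the other 2 lay above it. The log2 difference was -1.57 ± 0.39 (edgeR adjusted p = 0.0325). Ifit1bl1 had 10.7, 15.9 and 24.2 CPM in C9-BACexp crRNA-13 mice, against 14.1, 17.9 and 18.6 CPM in C57BL/6J crRNA-13 mice. All 3 C57BL/6J values lay inside the C9-BACexp range, and the log2 difference was -0.03 ± 0.3 (edgeR adjusted p = 0.982).

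**Figure D1:**
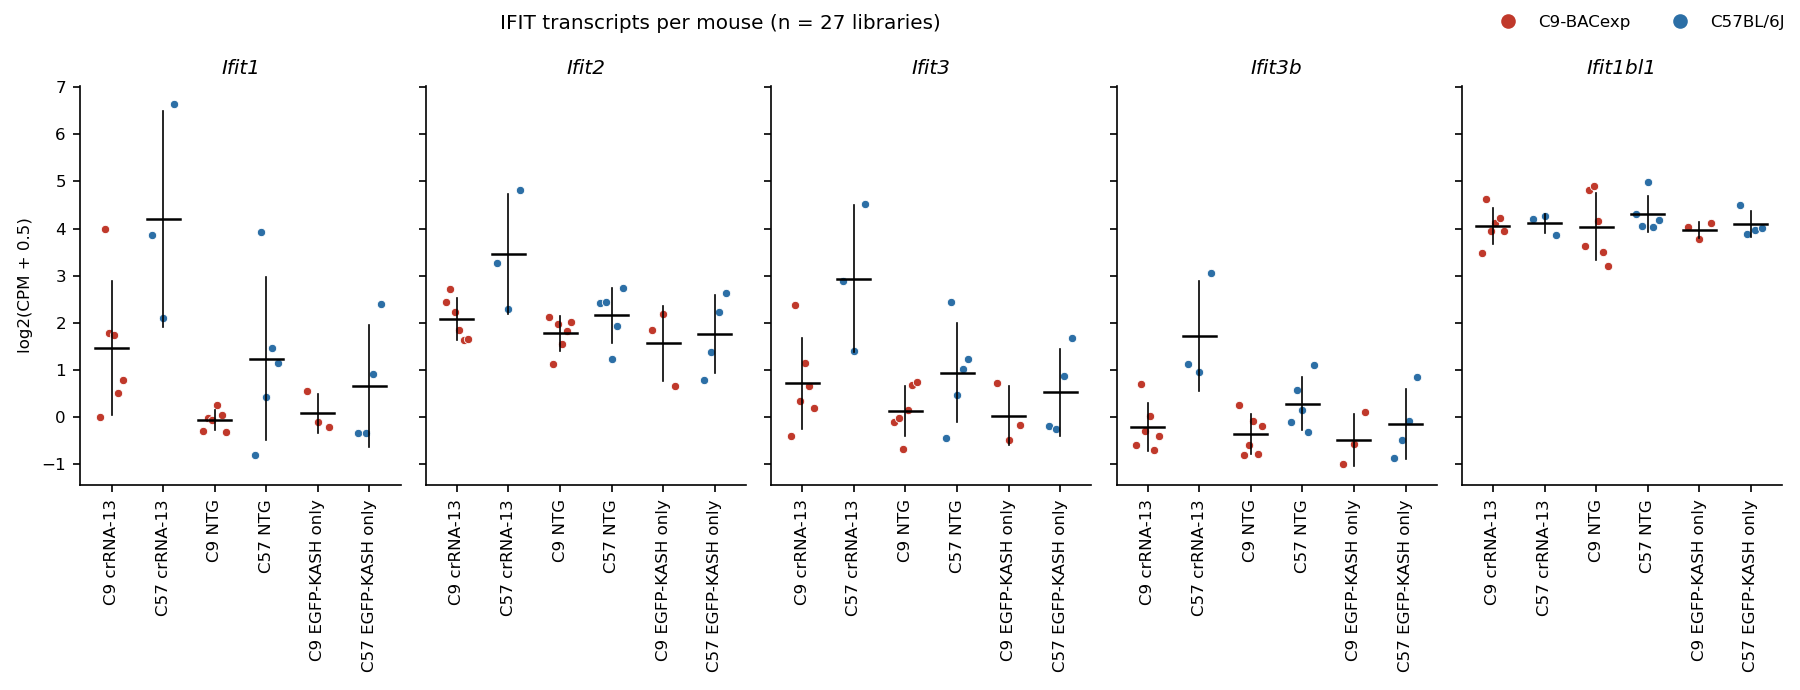
Level of each IFIT member in each of the 27 mice, as log2(CPM + 0.5), by genotype and treatment. Points are mice and bars are the group mean ± SD. C57BL/6J crRNA-13 replicate 5 is the highest point for Ifit1 (99.3 CPM), Ifit2 (27.6), Ifit3 (22.4) and Ifit3b (7.85), while Ifit1bl1 stays between 8.67 and 31 CPM in all groups.

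The call depended on C57BL/6J crRNA-13 replicate 5. Without it, only Ifit3 was called among the members, at -2.02 with an adjusted p of 0.037 (edgeR), while 0.429% of all genes were called. The difference was then -1.72 for Ifit1 (adjusted p = 0.276), -0.81 for Ifit2 (adjusted p = 0.363) and -2.02 for Ifit3b (adjusted p = 0.157). Leaving out C9-BACexp replicate 6 ended the calls of Ifit1 (-2.87, adjusted p = 0.058) and Ifit2 (-1.46, adjusted p = 0.078). Ifit1 was also lost without C9-BACexp replicate 1 (-2.81) or C57BL/6J NTG replicate 1 (-2.82), and Ifit2 without C9-BACexp replicate 7 (-1.46). Ifit3 was called whichever of the 27 libraries was left out, with differences of -3.47 to -2.02.

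**Figure D2:**
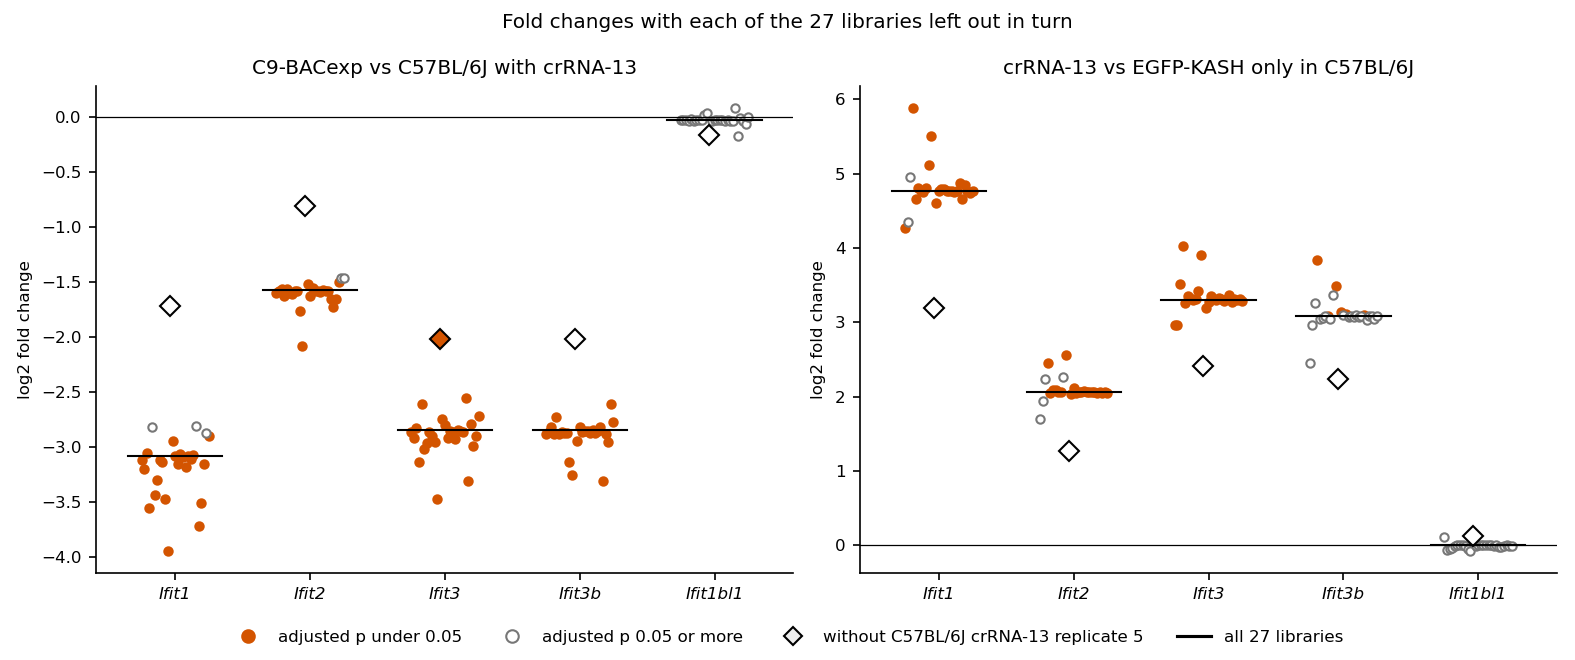
log2 fold change of each member with 1 of the 27 libraries left out at a time, for C9-BACexp against C57BL/6J mice with crRNA-13 and, within C57BL/6J mice, for crRNA-13 over EGFP-KASH only. Each point is 1 refit, orange points have an edgeR adjusted p under 0.05, the diamond is the refit without C57BL/6J crRNA-13 replicate 5 and the line is the value with all 27. The diamonds of Ifit1, Ifit2, Ifit3 and Ifit3b lie nearest to 0 in both comparisons (-1.72 and 3.19 for Ifit1).

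Within C57BL/6J mice, which lack the human target, 3 of the 5 members were higher with crRNA-13 than with EGFP-KASH only, against 0.331% of all genes called higher and 0.404% called in either direction. Ifit1 had 14, 3.83 and 99.3 CPM with crRNA-13, against 0.288, 0.296, 1.39 and 4.77 CPM with EGFP-KASH only. The lowest crRNA-13 mouse lay below the highest EGFP-KASH only mouse, and the log2 difference was 4.77 ± 0.88 (edgeR adjusted p = 0.0153, 27.2-fold, n = 3 and 4). Ifit3 had 6.91, 2.15 and 22.4 CPM with crRNA-13, against 0.383, 0.339, 1.32 and 2.71 CPM with EGFP-KASH only. One crRNA-13 mouse again fell below the top of the other group, and the log2 difference was 3.3 ± 0.55 (edgeR adjusted p = 0.0109). Ifit2 had 9.21, 4.38 and 27.6 CPM with crRNA-13, against 2.12, 4.23 and 5.7 CPM in 3 of the EGFP-KASH only mice and less, from 25.78 counts, in the remaining mouse (replicate 2). Its log2 difference was 2.07 ± 0.44 (edgeR adjusted p = 0.0341), with the groups overlapping at 4.38 CPM.

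Ifit3b had 1.7, 1.45 and 7.85 CPM in C57BL/6J mice with crRNA-13, against 0.0479, 0.212, 0.452 and 1.3 CPM with EGFP-KASH only. The groups did not overlap, as for 2.58% of all genes in that direction, but the log2 difference of 3.09 ± 0.72 was not called (edgeR adjusted p = 0.0634). DESeq2 with the same factors called 4 members here and limma called 3, counts given without the share of all genes that each method called. EdgeR without factors called 0 members and 0% of all genes, with 4 members at an unadjusted p under 0.05. Of all genes, 4.77% had such a p without factors and 11.2% with them. Leaving out any 1 of 6 libraries, among them crRNA-13 replicate 2 (3.49, adjusted p = 0.0343), brought Ifit3b past the limit. Ifit1bl1 had 17.9, 18.6 and 14.1 CPM with crRNA-13, against 22.1, 14.3, 15.3 and 15.6 CPM with EGFP-KASH only, a log2 difference of 0 ± 0.33. Without C57BL/6J crRNA-13 replicate 5, edgeR called 0 members and 0.279% of all genes, although 4 members kept an unadjusted p under 0.05. Of the 22601 genes tested in that fit, 3019 had such a p. The log2 differences were then 3.19 for Ifit1 (adjusted p = 0.0883), 1.27 for Ifit2 (adjusted p = 0.201) and 2.41 for Ifit3 (adjusted p = 0.0606). Only Ifit3 was called without EGFP-KASH only replicate 3 or replicate 4, where Ifit1 stood at 4.35 and 4.96 with adjusted p of 0.0595 and 0.0624. Ifit2 was also lost without EGFP-KASH only replicate 2 (1.7) or crRNA-13 replicate 1 (2.26).

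Against NTG in C57BL/6J mice, 0 of 5 members and 0% of all genes were called by edgeR, where the study's stricter limits, with an adjusted p under 0.01, were used. At these limits the paper itself, with limma-trend and its own factors, did report genes that differed, most of them up-regulated. It linked them to terms of interferon and host defense responses. Ifit1 had 14, 3.83 and 99.3 CPM with crRNA-13, against 0.0785, 14.7, 0.861, 2.27 and 1.73 CPM with NTG. NTG replicate 2, at 14.7 CPM, stood above 2 of the crRNA-13 mice and the other 4 NTG mice stood below all of them. The log2 difference of Ifit1 was 3.61 ± 0.73 (edgeR adjusted p = 0.0365, n = 3 and 5). Ifit3 had 6.91, 2.15 and 22.4 CPM with crRNA-13, against 0.236, 4.94, 0.896, 1.53 and 1.84 CPM with NTG, a log2 difference of 2.59 ± 0.49 (edgeR adjusted p = 0.0321). The same NTG mouse was the highest of its group.

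Ifit2 had 9.21, 4.38 and 27.6 CPM in C57BL/6J mice with crRNA-13, against 4.87, 4.97, 1.86, 3.33 and 6.16 CPM with NTG. Its log2 difference was 1.58 ± 0.4 (edgeR adjusted p = 0.0842). Ifit3b had 1.7, 1.45 and 7.85 CPM with crRNA-13, against 0.432, 0.987, 0.62, 0.306 and 1.65 CPM with NTG, and a log2 difference of 1.79 ± 0.64 (edgeR adjusted p = 0.257). In both genes the lowest crRNA-13 mouse fell within the NTG range. Ifit1bl1 had 17.9, 18.6 and 14.1 CPM with crRNA-13, against 19.3, 16.2, 31, 15.9 and 17.7 CPM with NTG, and a log2 difference of -0.23 ± 0.32. Of the 5 members 4 had an unadjusted p under 0.05, as had 11.1% of all genes tested. DESeq2 with the same factors called 2 members, as did edgeR at the limits of the other comparisons (an alternative chosen after seeing the data), while limma called 0. Without crRNA-13 replicate 2, edgeR called Ifit1 (4.41, adjusted p = 0.00411) and Ifit3 (3.22, adjusted p = 0.00172). Of all 22682 genes tested in that fit, 70 were called higher and 1 lower. Without crRNA-13 replicate 5, edgeR called 0 members, with 2 at an unadjusted p under 0.05. Of all 22601 genes tested in that fit, 1 was called higher and 2 lower, and 3411 had such a p. The differences were then 2.17 for Ifit1, 0.78 for Ifit2, 1.76 for Ifit3 and 0.97 for Ifit3b, each smaller than with all libraries.

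Within C9-BACexp mice, where crRNA-13 has its target, 0 of 5 members were called against NTG, beside 0.478% of all genes. Ifit1 had 0.498, 2.03 and 15.4 CPM (lowest, median, highest) with crRNA-13, against 0.304, 0.48 and 0.69 CPM with NTG. Of the 6 crRNA-13 mice, 5 stood above every NTG mouse. The log2 difference was 2.46 ± 0.7 and did not pass the test (edgeR adjusted p = 0.0655, n = 6 each). Without crRNA-13 replicate 7 it did, at 2.56 with an adjusted p of 0.0496, and without crRNA-13 replicate 2 it was 1.77 beside an adjusted p of 0.205.

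Ifit3 had 0.265, 0.925 and 4.73 CPM in C9-BACexp mice with crRNA-13, against 0.128, 0.556 and 1.18 CPM with NTG, and a log2 difference of 0.93 ± 0.42 (edgeR adjusted p = 0.28). Ifit2 had 2.6, 3.64 and 6.08 CPM with crRNA-13, against 1.7, 3.25 and 3.87 CPM with NTG, and a log2 difference of 0.43 ± 0.33. Both genes overlapped widely between these groups. Ifit3b had 0.116, 0.285 and 1.14 CPM with crRNA-13, against 0.0757, 0.275 and 0.694 CPM with NTG, and a log2 difference of 0.43 ± 0.56. Ifit1bl1 had 10.7, 15.9 and 24.2 CPM with crRNA-13, against 8.67, 14.7 and 29.6 CPM with NTG, and a log2 difference of -0.1 ± 0.25. Here too the ranges overlapped. Of the 5 members 2, Ifit1 and Ifit3, had an unadjusted p under 0.05, as had 10.3% of all genes. DESeq2 with the same factors called 1 and limma called 0.

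When C9-BACexp mice with crRNA-13 were set against those with EGFP-KASH only, edgeR also called 0 members, beside 0.923% of all genes. Ifit1 had 0.498, 2.03 and 15.4 CPM (lowest, median, highest) with crRNA-13, against 0.364, 0.432 and 0.959 CPM with EGFP-KASH only, and 4 of the 6 crRNA-13 mice stood above all 3. Its log2 difference was 2.36 ± 0.86 (edgeR adjusted p = 0.165, n = 6 and 3). Ifit3 had EGFP-KASH only levels of 1.16, 0.216 and 0.394 CPM, 2 within its crRNA-13 range and 1 below it, and a log2 difference of 1.26 ± 0.55 (edgeR adjusted p = 0.252). The log2 differences were 0.58 ± 0.41 for Ifit2, 1.33 ± 0.81 for Ifit3b and 0.11 ± 0.31 for Ifit1bl1. Of the 5 members 2, Ifit1 and Ifit3, had an unadjusted p under 0.05, beside 12.2% of all genes, DESeq2 with the same factors called 1 and limma called 0. The crRNA-13 mice of a genotype are shared by all comparisons that use them, so the values above stand side by side and are not independent.

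**Figure D3:**
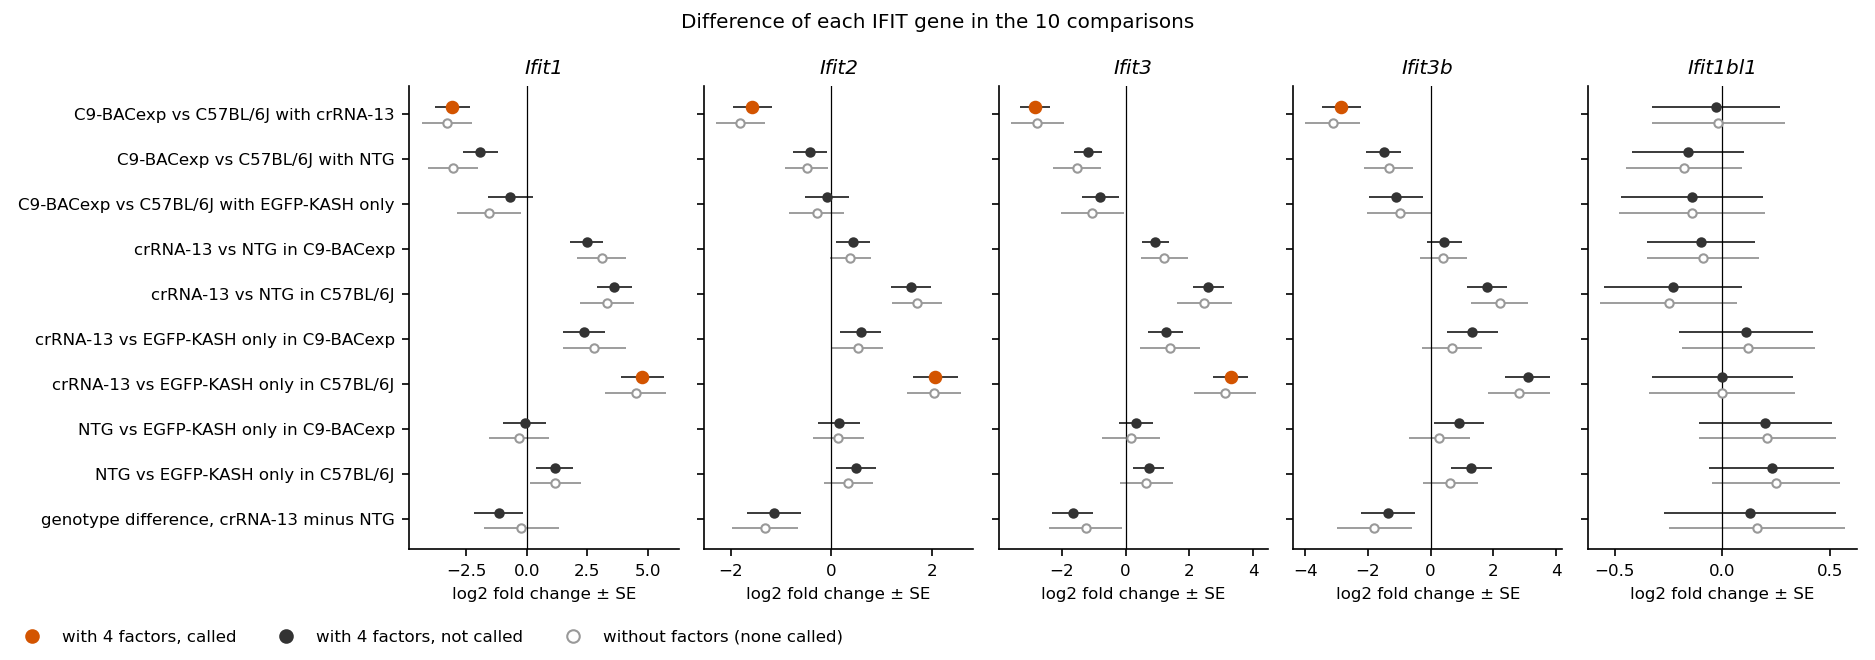
log2 fold change ± SE of each member in the 10 comparisons, with 4 factors of unwanted variation (filled, orange where called) and without factors (open grey). The scale differs between panels. The 7 orange points are Ifit1, Ifit2, Ifit3 and Ifit3b for C9-BACexp against C57BL/6J with crRNA-13 (-3.08, -1.57, -2.84 and -2.84) and Ifit1, Ifit2 and Ifit3 within C57BL/6J for crRNA-13 over EGFP-KASH only (4.77, 2.07 and 3.3).

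With NTG, the genotypes differed in no member by the test: 0 of 5 were called by edgeR, beside 6.6% of all genes, and DESeq2 and limma with the same factors also called 0. Of the 5 members 3 had an unadjusted p under 0.05, Ifit1, Ifit3 and Ifit3b, beside 25.9% of all genes tested. Ifit1 had 0.304, 0.48 and 0.69 CPM (lowest, median, highest) in C9-BACexp NTG mice, against 0.0785, 14.7, 0.861, 2.27 and 1.73 CPM in C57BL/6J NTG mice. Of the C57BL/6J mice 4 stood above every C9-BACexp mouse and 1 stood below all of them. The log2 difference was -1.92 ± 0.72 (edgeR adjusted p = 0.18), and -0.81 once C57BL/6J NTG replicate 2 was left out. For Ifit3, C9-BACexp NTG mice had 0.128, 0.556 and 1.18 CPM, against 0.236, 4.94, 0.896, 1.53 and 1.84 CPM in C57BL/6J NTG mice. The ranges overlapped and the log2 difference was -1.18 ± 0.44 (edgeR adjusted p = 0.176). The difference was -1.49 ± 0.56 for Ifit3b (edgeR adjusted p = 0.181), -0.43 ± 0.34 for Ifit2 and -0.16 ± 0.26 for Ifit1bl1.

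With EGFP-KASH only, 0 of 5 members differed between genotypes by edgeR, 0 had an unadjusted p under 0.05, and DESeq2 and limma called 0, beside 2.86% of all genes called by edgeR. Ifit1 had 0.959, 0.432 and 0.364 CPM in C9-BACexp mice, against 0.288, 0.296, 1.39 and 4.77 CPM in C57BL/6J mice, a log2 difference of -0.68 ± 0.94. Ifit2 had 3.12, 4.03 and 1.09 CPM in C9-BACexp mice, against 2.12, 4.23 and 5.7 CPM in 3 C57BL/6J mice and 25.78 counts in the lowest, a log2 difference of -0.09 ± 0.44. The ranges of both genes overlapped. Ifit3b had 0, 0.18 and 0.576 CPM in C9-BACexp mice, where a count of 0 allows up to 0.12 CPM, against 0.0479, 0.212, 0.452 and 1.3 CPM in C57BL/6J mice. The library at 0, C9-BACexp replicate 2, also had the fewest genes with a count of all 27 (21857), and without it the log2 difference of Ifit3b was 0.28 here, and within C9-BACexp mice it was -0.08 for crRNA-13 and -0.46 for NTG over EGFP-KASH only. With it the difference was -1.09 ± 0.86, while that of Ifit3 was -0.8 ± 0.58 and that of Ifit1bl1 was -0.14 ± 0.33.

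NTG was also set against EGFP-KASH only within each genotype. In C9-BACexp mice 0 of 5 members were called by edgeR, with 0 at an unadjusted p under 0.05 and 0 by DESeq2 or limma, beside 0.0322% of all genes. The log2 differences were -0.09 ± 0.88 for Ifit1, 0.15 ± 0.41 for Ifit2, 0.33 ± 0.54 for Ifit3, 0.9 ± 0.79 for Ifit3b and 0.2 ± 0.31 for Ifit1bl1. In C57BL/6J mice 0 of 5 members and 0% of all genes were called, again with 0 at an unadjusted p under 0.05 in edgeR and 0 calls by DESeq2 or limma. The largest of these differences were 1.3 ± 0.65 for Ifit3b and 1.15 ± 0.77 for Ifit1.

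The difference between genotypes with crRNA-13 was not shown to differ from that with NTG. In the test of the difference itself, 0 of 5 members passed by edgeR, DESeq2 or limma, beside 0.00459% of all genes. In edgeR 2 members had an unadjusted p under 0.05, beside 10.4% of all genes. Ifit3 gave -1.66 ± 0.65 (edgeR adjusted p = 0.373) and Ifit2 gave -1.14 ± 0.53 (edgeR adjusted p = 0.454), on the log2 scale. The values were -1.16 ± 1.02 for Ifit1, -1.35 ± 0.86 for Ifit3b and 0.13 ± 0.4 for Ifit1bl1.

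Across the 27 libraries the members varied to unequal degrees and mostly together. The highest level was 107 times the median for Ifit1, 20.6 times for Ifit3, 18.2 times for Ifit3b, 7.73 times for Ifit2 and 1.91 times for Ifit1bl1. Ifit1 and Ifit3 had the highest correlation of log2(CPM + 0.5) of any pair of members (Pearson r = 0.95, Spearman rho = 0.86), and r was 0.92 after the group means were removed and 0.9 without the 2 libraries farthest from the median, C57BL/6J crRNA-13 replicates 5 and 1. The other pairs among Ifit1, Ifit2, Ifit3 and Ifit3b had r of 0.76 to 0.83, which fell to 0.48 to 0.63 without those libraries. Ifit1bl1 had r of -0.24 to 0.05 with the other members. These correlations are descriptions over libraries that share their depth and treatment, and Ifit3 and Ifit3b also share sequence.

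The factors of unwanted variation, estimated from the residuals of all genes, moved with the members. Within groups, 1 of the 4 factors had r of -0.8 with Ifit3, -0.72 with Ifit1, -0.45 with Ifit3b and -0.24 with Ifit2 over the 27 libraries, and another had r of 0.63 with Ifit2 and 0.48 with Ifit3b. For C9-BACexp against C57BL/6J with crRNA-13, the SE of Ifit3 was 0.47 with the factors and 0.83 without them, at differences of -2.84 and -2.77. Without factors the adjusted p were 0.407 for Ifit1, 0.259 for Ifit2, 0.363 for Ifit3 and 0.297 for Ifit3b. What the factors stand for was not tested.

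Genes of the interferon pathway were listed by role, with earlier results of these data known. Among the nucleic acid sensors and adaptors, 4 of 17 were lower in C9-BACexp than in C57BL/6J mice with crRNA-13 and 0 were higher, with a median log2 difference of -1.08. They were Eif2ak2, the kinase PKR that halts translation on double-stranded RNA (-2.29 ± 0.46, edgeR adjusted p = 0.00939), the RNA helicases Ddx58 (-2.07 ± 0.45, adjusted p = 0.0148) and Ifih1 (-2.08 ± 0.48, adjusted p = 0.0232), and their relative Dhx58 (-1.57 ± 0.36, adjusted p = 0.02). Of the interferon signaling factors, 3 of 9 were lower, with a median of -0.75, among them the transcription factors Irf1 (-1.39) and Stat2 (-0.97). Of the feedback genes, 1 of 7 was lower, Samhd1, which degrades nucleotides needed by viruses (-0.8 ± 0.18).

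The other interferon-induced effectors had 11 of 37 lower and 0 higher in C9-BACexp than in C57BL/6J mice with crRNA-13, and all 37 had a difference below 0 (median -1.96). The 4 with the smallest p were Ifi44 (-5.53 ± 1.12), Samd9l, which restricts poxviruses (-1.96 ± 0.43), Rnf213, a giant ubiquitin ligase (-2.5 ± 0.55), and Phf11d (-3.43 ± 0.79). The interferons themselves were barely detected: the 10 interferon genes reached at most 0.188 CPM in any library and 0.0272 CPM in C57BL/6J crRNA-13 mice, and none passed the filter. Of their 6 receptor genes 0 were called by edgeR, and 0 had an unadjusted p under 0.05. Of 21 genes of cap methylation and translation initiation, 0 were called, with 3 at an unadjusted p under 0.05 and a median of 0.05. Without C57BL/6J crRNA-13 replicate 5, edgeR called 0 of these effectors (median -1, 9 at an unadjusted p under 0.05), 0 sensors, 0 signaling factors and 0 feedback genes. Of all 22601 genes tested in that fit, 28 were called higher and 69 lower, and 1960 had such a p. Without factors, 0 genes of these lists were called in any comparison.

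In C57BL/6J mice, with crRNA-13 over EGFP-KASH only, 17 of the 37 effectors were higher and 0 lower (median 3.62). Those with the smallest p were Ddx60, an RNA helicase (4.34 ± 0.69, edgeR adjusted p = 0.0102), Rnf213 (3.97 ± 0.65), Oas2, which makes the second messenger that activates RNase L (6.06 ± 1.03), and Uba7, the enzyme that activates ISG15 (4.21 ± 0.72). Of the sensors 3 of 17 were higher, Eif2ak2 (3.29), Ddx58 (2.69) and Ifih1 (2.69), of the signaling factors 2 of 9, among them Stat2 (1.43), and of the feedback genes 1 of 7, Nlrc5 (4.03). Without C57BL/6J crRNA-13 replicate 5, 1 effector was called and the median was 2.49, beside 45 genes called higher and 18 lower of all 22601. Without crRNA-13 replicate 1, edgeR called 10 of 38 effectors, beside 59 genes called higher and 8 lower of all 22623. Without crRNA-13 replicate 2 it called 27 of 38, beside 141 genes called higher and 12 lower of all 22682. Against NTG in the same mice, 0 effectors were called at the stricter limits, all 37 had a difference above 0 (median 2.8) and 32 had an unadjusted p under 0.05. Of all genes, 11.1% had such a p. Leaving out C57BL/6J crRNA-13 replicate 5 gave 0 called by edgeR, a median of 1.7 and 18 at an unadjusted p under 0.05. Of all 22601 genes, 3411 then had such a p. Leaving out replicate 2 gave 15 of 38 called and a median of 3.51, beside 70 genes called higher and 1 lower of all 22682.

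In C9-BACexp mice, 3 of the 37 effectors were higher with crRNA-13 than with NTG and 0 were lower, and 33 had a difference above 0: Oas1a (3.65 ± 0.83), Uba7 (2.08 ± 0.53) and Igtp, an interferon-induced GTPase (2.41 ± 0.64). Without crRNA-13 replicate 2 the count was 1, with a median of 0.74, beside 60 genes called higher and 57 lower of all 21654. Against EGFP-KASH only, 7 of the 37 were higher (median 2.2), among them Ifi35 (4.03 ± 0.82) and Oasl2 (5.13 ± 1.2). IFIT members were called in neither of these comparisons.

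**Figure D4:**
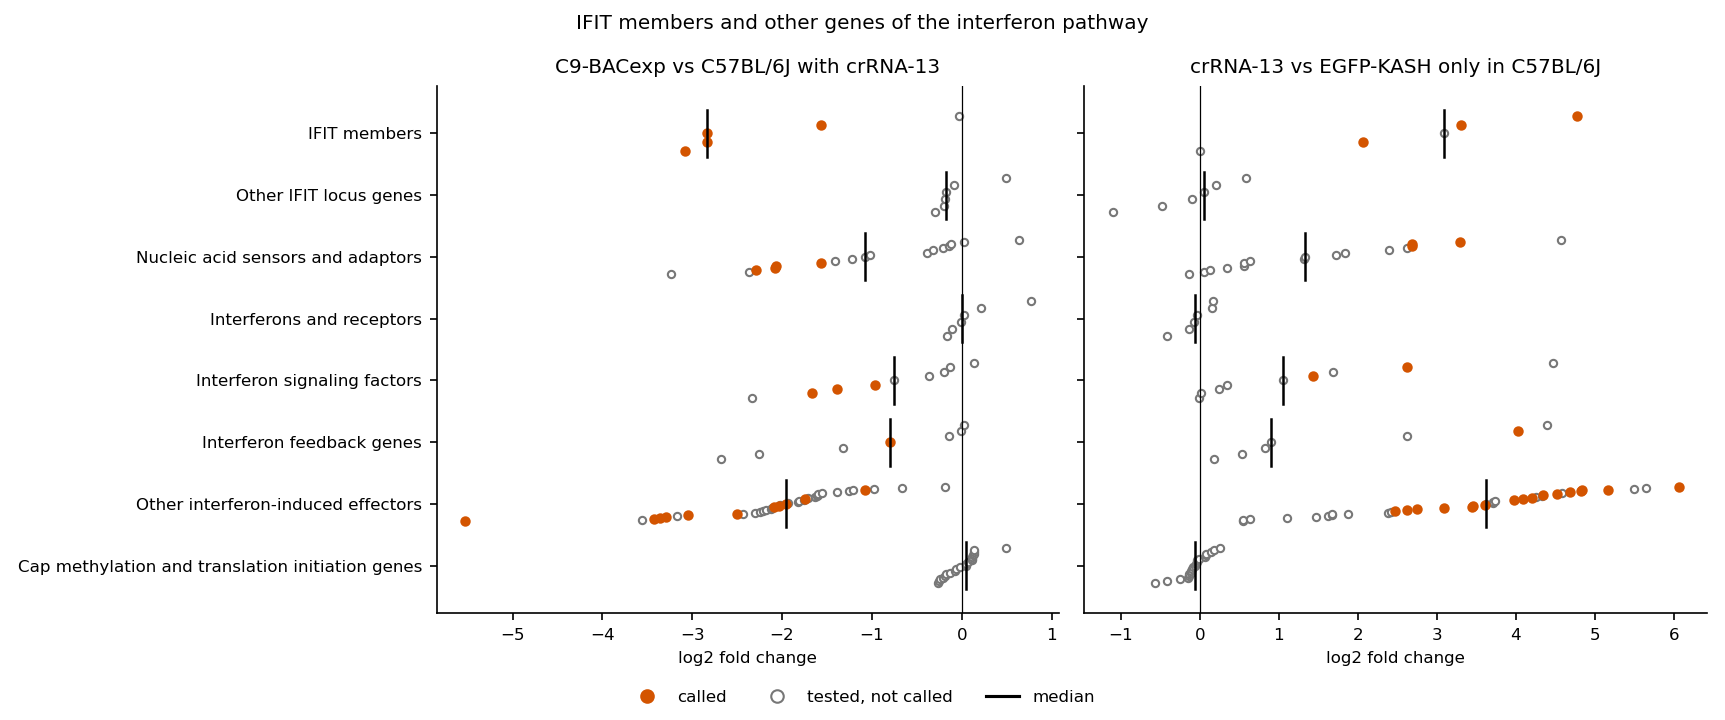
log2 fold change of the IFIT members and of the 7 gene lists for C9-BACexp against C57BL/6J with crRNA-13 and, within C57BL/6J, for crRNA-13 over EGFP-KASH only. Each point is a gene, orange where called, and the black mark is the list's median. The effectors lie on one side of 0 in both panels (medians -1.96 and 3.62), while cap methylation and translation initiation genes lie around 0 (medians 0.05 and -0.06). Ifit1bl2, a neighbor at 0 in 23 libraries, is counted in its list's median and not drawn.

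The genes most like the members were sought by the correlation of log2(CPM + 0.5) with the members' mean over the 27 libraries. The 7 with the highest Pearson r were Eif2ak2 (0.953), Mx1 (0.943), Ddx58 (0.94), Usp18 (0.938), Oas2 (0.938), Phf11d (0.936) and Oas1g (0.935). Within groups r was 0.865 to 0.9, and without C57BL/6J crRNA-13 replicates 5 and 1 it was 0.844 to 0.895. Of the members, which enter the mean themselves, Ifit1 ranked 1, Ifit3 2, Ifit3b 22 and Ifit2 64 among the genes tested, while Ifit1bl1 ranked 8803 (r = 0.059). Eif2ak2 had 3.12, 4.69 and 16.1 CPM (lowest, median, highest) in C9-BACexp crRNA-13 mice, against 9.28, 15.8 and 94.4 CPM (lowest, median, highest) in C57BL/6J crRNA-13 mice. As with Ifit1 and Ifit3, the groups overlapped and the spread among the C57BL/6J mice was wide.

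Markers of other cell types were summed in the same libraries. The 12 microglia markers summed to 44.4 to 87.5 CPM in C9-BACexp crRNA-13 mice and 59.9 to 85.6 CPM in C57BL/6J crRNA-13 mice, with 0 of 12 called by edgeR, 2 at an unadjusted p under 0.05 and a median log2 difference of -0.69. The 14 markers of infiltrating immune cells summed to 1.44 to 7.29 CPM in C9-BACexp mice, where 7 were at 0 in every library, and 0.513 to 8.61 CPM in C57BL/6J mice, where 3 were. The highest of these sums belonged to the mice with the highest Ifit1 in each group, C9-BACexp crRNA-13 replicate 2 (7.29 CPM) and C57BL/6J crRNA-13 replicate 5 (8.61 CPM). The highest sum of all 27 libraries was in C9-BACexp NTG replicate 6 (9.35 CPM), where Ifit1 stood at 0.304 CPM. The 7 endothelial markers summed to 10.4 to 15.3 CPM in C9-BACexp mice and 14.4 to 21.7 CPM in C57BL/6J mice, with 0 called by edgeR and 2 at an unadjusted p under 0.05. The 8 astrocyte markers summed to 551 to 809 CPM in C9-BACexp mice and 641 to 941 CPM in C57BL/6J mice, with 2 called lower. The 6 oligodendrocyte markers summed to 522 to 3620 CPM in C9-BACexp mice and 709 to 1300 CPM in C57BL/6J mice, with 1 called higher. Within C57BL/6J mice, the neuron markers summed to 4290 to 4660 CPM with crRNA-13, against 4930 to 5530 CPM with EGFP-KASH only, and these ranges did not overlap. Of the 8 neuron markers, 0 were called by edgeR and 3 had an unadjusted p under 0.05 (median log2 difference -0.16). The microglia markers summed to 59.9 to 85.6 CPM with crRNA-13 and 58.6 to 91.7 CPM with EGFP-KASH only, with 0 of 12 called by edgeR, 1 at an unadjusted p under 0.05 and a median log2 difference of 0.67. No tested marker of the other cell types was called there by edgeR, with 3 astrocyte, 3 oligodendrocyte, 0 endothelial and 0 of the 3 tested immune markers at an unadjusted p under 0.05. The part of these cells in the members' levels was not tested.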

How the data were processed

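Nuclei were sorted for EGFP-KASH from the motor cortex of 27 mice, each an independent biological replicate, and total RNA was sequenced. Groups follow the labels. The authors deposited expected counts per gene, estimated with Salmon 1.10.0 against mouse transcripts in spliced and unspliced form (NCBI Annotation Release 109) plus 3 human C9ORF72 transcripts and EGFP-KASH, with the GRCm39 genome as decoy, and summarized with tximport in R 4.3.1. Because reads shared between genes are divided among them by the model, counts of paralogs are estimates. The deposited counts are not normalized between libraries. Sample handling follows the study's methods, because the protocols in the labels are for transfected cells.

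Here, the expected counts were rounded, and genes kept by filterByExpr (minimum count 10, total 15) were tested with edgeR 4.0.16 in R 4.3.3: TMM scaling and a robust quasi-likelihood F test of 6 groups with 4 factors of unwanted variation from residuals. The study used limma-trend with 4 factors from RUVSeq and does not name which of that package's methods; limma-trend with 4 factors was run as an alternative. P-values were adjusted by Benjamini-Hochberg, together over the 3 genotype comparisons and the 2 comparisons of crRNA-13 in C9-BACexp mice, and alone elsewhere. The SE is the absolute log2 fold change over the square root of F. Alternatives used limma 3.58.1 and DESeq2 1.42.0, whose counts of called members are given without the share of all genes they called. Limits for a count of 0 (3 counts) cover counting error only. The SE rests on the fitted dispersion and so includes the spread between mice. The test was tried on simulated counts first. Members and lists were chosen with earlier results of these data known. Named were all members, up to 4 called genes per list and comparison with the smallest p, and the 8 genes most like the members, except 1 gene that is not reported here.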

Additional observations from a re-analysis of the deposited data

Results flagged for a closer look

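Each member was looked at in each group of 4 to 6 mice, 20 in all, and 5 of these 20 held a mouse far from the rest by Dixon's test. The nominal rate of about 1 in 20 holds for independent values with a normal spread. CPM were used without logs, all 5 flags were highest values and members varied together, so 5 of 20 does not measure an excess. Ifit1 was at 14.7 CPM in C57BL/6J NTG replicate 2, with the next mouse at 2.27 CPM. It was at 15.4 CPM in C9-BACexp crRNA-13 replicate 2, with the next at 2.97 CPM. The same mouse had 4.73 CPM of Ifit3, with the next at 1.74 CPM. Ifit1bl1 was at 22.1 CPM in C57BL/6J EGFP-KASH only replicate 2, with the next at 15.6 CPM, and at 31 CPM in C57BL/6J NTG replicate 3, with the next at 19.3 CPM. The groups of 3 mice were not tested this way, so the highest Ifit1 value of all, in C57BL/6J crRNA-13 replicate 5, was not.

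Human C9ORF72 transcripts, which the comparisons do not use, had 0.327 CPM (V2, 11.81 counts) and 0.109 CPM (V1, 4.25 counts) in C57BL/6J crRNA-13 replicate 5. The limit that a count of 0 allows in this library is 0.0817 CPM. It was the only 1 of 12 C57BL/6J libraries with such counts, and it carried the highest Ifit1, Ifit2, Ifit3 and Ifit3b of all 27 libraries. Where these counts come from was not tested.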

How the results depend on the processing

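Each of the 50 differences and the 10 counts of called members was recomputed under 11 alternatives, where these applied, and without each of the 27 libraries. The limits of 1.2 and 0.05 concern only crRNA-13 over NTG in C57BL/6J, and a fit of the groups alone gave no value for Ifit3b in C9-BACexp for crRNA-13 over NTG. Of the 1854 values of the differences, 1754 kept their direction and side of the threshold, 54 lost it, 17 gained it, 5 turned sign under an alternative and 24 turned sign without a library. The 4 members called for C9-BACexp against C57BL/6J with crRNA-13 became 0 with 2 factors, without factors, with DESeq2 without factors and in a fit of those groups alone, and 1 with p adjusted within the comparison. The 3 called within C57BL/6J for crRNA-13 over EGFP-KASH only became 0 with 2 factors, without factors and in a fit of those groups alone. DESeq2 with 4 factors called 1 where edgeR called 0 in C9-BACexp, both for crRNA-13 over NTG and for crRNA-13 over EGFP-KASH only, and 2 for crRNA-13 over NTG in C57BL/6J. There the limits of 1.2 and 0.05, chosen after seeing the data, also gave 2. With 1 library left out, the counts were 1 to 4 with crRNA-13 between genotypes, 0 to 4 within C57BL/6J for crRNA-13 over EGFP-KASH only, 0 to 2 against NTG in C57BL/6J and 0 to 1 against NTG in C9-BACexp.

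The replicate numbers showed little sign of pairing the mice by the median correlation of deviations, -0.00307 for same-numbered pairs against 0.000135 for other numbers. Of 48 same-numbered pairs, 10 were above 0.1 (range -0.162 to 0.286), a share not computed for other numbers. Whether mice of the same number shared a litter or batch was not tested. With the replicate number as a block, 0 members were called for C9-BACexp against C57BL/6J with crRNA-13, and the differences of Ifit1 for NTG against EGFP-KASH only in C9-BACexp (0.38) and of Ifit1bl1 for crRNA-13 against NTG in C9-BACexp (0.01) turned sign. These also turned with DESeq2 (0.1) and limma (0.02), and Ifit1 in the difference of genotype differences turned with 2 factors (0.16).

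Signs that turned without 1 library belonged to differences that were not called. For Ifit1 the values ran from -1.21 to 0.12 (genotypes, EGFP-KASH only), -0.39 to 0.41 (NTG against EGFP-KASH only, C9-BACexp), -0.19 to 2.32 (the same, C57BL/6J) and -2.61 to 0.13 (difference of genotype differences). For Ifit2 they ran from -0.65 to 0.35 (genotypes, EGFP-KASH only) and -0.29 to 0.72 (NTG against EGFP-KASH only, C9-BACexp), and for Ifit3 from -0.13 to 1.01 (the same comparison). For Ifit3b they ran from -2.77 to 0.28 (genotypes, EGFP-KASH only), -0.07 to 0.75 (crRNA-13 against NTG, C9-BACexp), -0.08 to 3.01 (crRNA-13 against EGFP-KASH only, C9-BACexp) and -0.46 to 2.6 (NTG against EGFP-KASH only, C9-BACexp). For Ifit1bl1 they ran from -0.17 to 0.08 and -0.37 to 0.02 (genotypes, crRNA-13 and NTG), -0.25 to 0.09 and -0.04 to 0.21 (crRNA-13 against NTG and EGFP-KASH only, C9-BACexp) and -0.05 to 0.33 (difference of genotype differences). The causes were not tested. With 3 C57BL/6J crRNA-13 mice and few Ifit3b counts, smaller differences could be missed.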

Other observations

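The other genes around the IFIT cluster on chromosome 19 were given as a list of 9, of which 7 were tested. In edgeR, 0 of the 7 were called in any of the 10 comparisons, with 0 to 4 at an unadjusted p under 0.05 in each. For C9-BACexp against C57BL/6J with crRNA-13, 1 had an unadjusted p under 0.05 and the median log2 difference was -0.17. Lipa, the lysosomal acid lipase next to Ifit2, had 12.8, 14.9 and 28.5 CPM (lowest, median, highest) in C9-BACexp crRNA-13 mice, against 16.7, 17.8 and 19.2 CPM in C57BL/6J crRNA-13 mice, a log2 difference of -0.09 ± 0.18. Ifit1bl2, whose span holds Ifit1 on the other strand, was at 0 in 23 of the 27 libraries.

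Single genes outside the effector list were called in comparisons where no IFIT member was. Between genotypes with NTG, Ticam1, the adaptor of a receptor for double-stranded RNA, was higher in C9-BACexp mice (0.89 ± 0.17, edgeR adjusted p = 0.00704). Eif4e, the cap-binding initiation factor, was lower (-0.38 ± 0.08, edgeR adjusted p = 0.0162). They were 1 of 17 sensors and adaptors and 1 of 21 genes of cap methylation and translation initiation. Because 6.6% of all genes were called between these groups, 1 call in lists of this size does not stand out. In C9-BACexp mice, Rngtt, the capping enzyme, was lower with crRNA-13 than with NTG (-0.36 ± 0.09, edgeR adjusted p = 0.0308). Rnmt, the cap methyltransferase, was lower with crRNA-13 than with EGFP-KASH only (-0.5 ± 0.13, edgeR adjusted p = 0.0409), where Nlrc5 was higher (2.96 ± 0.69, edgeR adjusted p = 0.025). Rngtt was 1 of 21 cap genes, beside 0.478% of all genes called. Rnmt was 1 of 21 cap genes and Nlrc5 1 of 7 feedback genes, beside 0.923% of all genes. With EGFP-KASH only, the effector Cmpk2 was lower in C9-BACexp mice (1.64 ± 1.23 CPM, SD, n = 3) than in C57BL/6J mice (3.13 ± 0.618 CPM, SD, n = 4), at a log2 difference of -1.43 ± 0.3. The ranges overlapped, at 0.24 to 2.56 CPM against 2.4 to 3.91 CPM. Its edgeR adjusted p was 0.0129 with the factors and 0.688 without them. The effector Ifitm3 was also called lower, but near the lowest levels measured, with 0, 0.0303 and 0.144 CPM in C9-BACexp mice, against 0.163 CPM or more in each of the 4 C57BL/6J mice, and its fitted fold change is not given.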
